A study of Homo sapiens with 4 samples.

Results

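The loops and contact domains described here are those of the CD44 locus on chromosome 11. A loop was taken when 1 or both of its anchors touched the 600 kb between positions 34900000 and 35500000 of GRCh37, and a domain when it overlapped that window. This gave 65 of the 77275 loop calls of the series and 13 of its 7418 domain calls. Loops of different libraries were joined when both anchor midpoints lay within 20 kb, which left 31 distinct loops of 33552 and, with both boundaries within 20 kb, 8 distinct domains of 3968. The material was MDA-MB-231, an established triple-negative breast cancer cell line that all 4 libraries share with no engineered change named in the labels. Vehicle cells received DMSO and treated cells received 75 nM THZ1, a covalent inhibitor of the kinase CDK7, both for 48 h, and Arima-HiC was run on 2 libraries per condition. The labels call these libraries technical replicates, so that spread between them, and every p-value built on it, may not include the variation between cultures. The comparison asks how loops and domains around CD44 differed between cells treated with THZ1 and cells treated with vehicle.

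CD44 encodes a cell-surface glycoprotein that binds hyaluronan, a long sugar polymer of the extracellular matrix, and that takes part in adhesion, migration and the response to growth factors. It is used as a marker of mesenchymal and stem-like breast cancer cells. A chromatin loop is a pair of distant DNA segments, its anchors, that touch more often than their surroundings, and many loops end at sites of the DNA-binding protein CTCF, where extrusion of the DNA by cohesin is halted. CDK7 is the kinase of the general transcription factor TFIIH and also activates the cell-cycle kinases, and THZ1 blocks both roles.

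By GENCODE 44 lifted to GRCh37, CD44 (ENSG00000026508) lies on the forward strand at chr11:35160429-35253949. Upstream of it lie APIP (34874641 to 34937926, reverse strand), an enzyme of methionine salvage, and PDHX (34937376 to 35042138, forward strand), a subunit of the pyruvate dehydrogenase complex, which start next to each other. Farther upstream are ELF5 and EHF, which encode ETS transcription factors of epithelial cells. Downstream lie SLC1A2 (35272752 to 35441610, reverse strand), a glutamate transporter, and PAMR1 (35453370 to 35551848, reverse strand). The anchors were searched on both strands for the core consensus of CTCF, and 3 of the 4 matches in or near the locus lay in loop anchors. They are printed on the strand of the match from GRCh37, with the 13 bases of the core in capitals, because the anchors that hold them carried 30 of the 65 loop calls.
Upstream of EHF, chr11:34607944-34607972, forward strand: atattatgCCACCAGATGGCAatgtttcc
APIP intron, chr11:34920737-34920765, reverse strand: ttctgtttCCACTAGGTGGCActgttggt
CD44 intron, chr11:35164094-35164122, reverse strand: tctaactcCCAGCAGGGGGCGgagtctct
Past the end of CD44, chr11:35259847-35259875, reverse strand: taaagcatCCACTAGGGGGCGcattatca

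The match in CD44 lies between its first exons, which end at position 35160917, and the next exon, which starts at 35198122. The same 5 kb anchor holds the start site of the gene. Anchors with this match carried 13 loop calls, 4 in each vehicle library, 2 in THZ1 replicate 1 and 3 in THZ1 replicate 2. Anchors with the match past the end of the gene carried 11 calls, 5 and 3 for vehicle against 2 and 1 for THZ1. The match upstream of EHF was in 6 calls, with 1, 2, 2 and 1 in vehicle replicates 1 and 2 and THZ1 replicates 1 and 2. The match in APIP was in no anchor of a loop of the locus. No loop had a match in both anchors, and 35 calls had none. Of the distinct 5 kb anchors, 3 of 21 at the locus (14.3%) held the core, against 2437 of 29472 over the genome (8.27%), and of the 10 kb anchors 3 of 19 (15.8%) did, against 2413 of 20048. A match to these letters is a description of the sequence and no measurement of CTCF binding.

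Fewer loops were called at the CD44 locus after THZ1. HiCCUPS, the loop caller of Juicer, listed 19 and 23 loops there for vehicle, against 13 and 10 for THZ1, with means of 21 ± 2.83 and 11.5 ± 2.12 (SD, n = 2). The ranges did not overlap, and the vehicle mean was 1.83 times the THZ1 mean. Over the whole genome the lists held 20768 and 24219 loops with vehicle and 17222 and 15066 with THZ1, a ratio of 1.39. With 2 libraries against 2, an exact two-sided permutation test cannot give a p below 0.333, and it gave p = 0.333 for this count. It gave the same p for loops on CD44 and on its start, median loop size, the share of small loops, loops with both anchors in the window, loops with 5 kb anchors and the number of domains. Counts at other genes were not tested.

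The lists differed in other ways that cover the whole genome and move with the condition. The expected contacts at a loop, taken by the caller from a ring of nearby pixels (the donut), had medians of 5.30 and 5.58 with vehicle and of 7.08 and 7.11 with THZ1. The ratio of observed to expected contacts had medians of 4.60 in both vehicle libraries, 4.10 in THZ1 replicate 1 and 4.04 in THZ1 replicate 2. Contacts at called loops summed to between 551436 and 762701 per library, a total that grows with the number of loops called and is no library size, and read totals were not analysed here. The part of these differences in the results at CD44 was not tested. A loop that a list lacks was not called there, which does not show that the contact was absent.

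**Figure D1:**
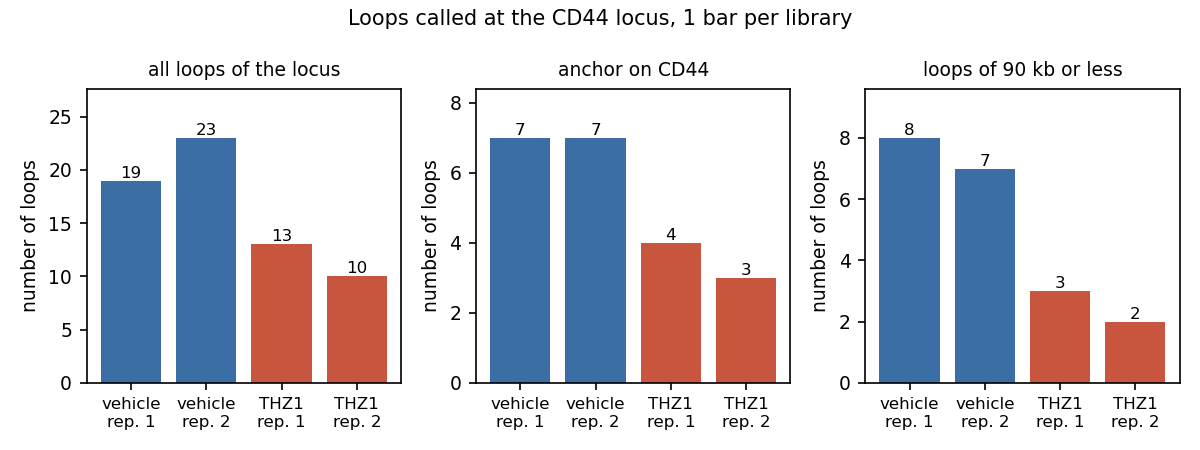
Number of loops per library (1 bar each) with an anchor in the 600 kb around CD44, with an anchor on CD44 itself, and with a size of 90 kb or less. In each panel both vehicle bars, such as 19 and 23 for all loops, stand above both THZ1 bars, 13 and 10.

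Loops with an anchor on the CD44 gene body numbered 7 in each vehicle library, 4 in THZ1 replicate 1 and 3 in THZ1 replicate 2. The means were 7 ± 0 and 3.5 ± 0.707 (SD, n = 2), a ratio of 2. Both THZ1 counts were below both vehicle counts, a pattern also seen at 3502 of the 14386 protein-coding genes with a loop (24.3%). That share covers genes with a loop in any library, and genes with as many vehicle loops as CD44 were not counted apart. Loops whose anchor held the start site of CD44 numbered 4 in each vehicle library, 2 in THZ1 replicate 1 and 3 in THZ1 replicate 2, a ratio of 1.6. PDHX, the next gene upstream, carried 7 and 9 loops with vehicle and 3 and 2 with THZ1. APIP carried 4 in each vehicle library and 3 in each THZ1 library. SLC1A2, downstream of CD44, carried 3 and 7 loops with vehicle and 5 and 3 with THZ1, so that its ranges overlapped.

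Median loop size was larger in both THZ1 libraries. The median, measured from anchor start to anchor start, was 110 and 140 kb for vehicle and 245 and 230 kb for THZ1 (125 ± 21.2 and 237.5 ± 10.6 kb, SD, n = 2). Over the genome the median was also larger with THZ1, at 200 kb in both THZ1 libraries and 140 kb in both vehicle libraries. Both vehicle libraries had more loops of 90 kb or less, 8 and 7, than the THZ1 libraries, 3 and 2. As shares these were 42.1% and 30.4% with vehicle and 23.1% and 20% with THZ1, with means of 36.3 ± 8.25% and 21.5 ± 2.18%. Over the genome the shares were 37.3% and 36.8% for vehicle and 26.2% and 25.5% for THZ1. The smallest loop measured 35 kb in 3 libraries and 50 kb in THZ1 replicate 1. Of the 4 distinct loops with a 35 kb call, 1 was called with THZ1, the loop between the lncRNA gene and the segment before CD44 described below. Loops with both anchors inside the window were 16 and 19 for vehicle against 9 and 6 for THZ1, and loops with 5 kb anchors were 15 and 17 against 7 and 7. Neither count was set beside a like count over the genome, where the lists were also shorter with THZ1. Loops with 10 kb anchors overlapped in number, at 4 and 6 for vehicle and 6 and 2 for THZ1 (exact permutation p = 1). The median ratio of observed to expected contacts over the called loops overlapped between the conditions. It was 3.58 and 3.65 with vehicle and 4.45 and 3.48 with THZ1 (exact permutation p = 1). Each median is over the library's own list, so these values compare different sets of loops. Loops called in all 4 libraries are compared below.

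**Figure D2:**
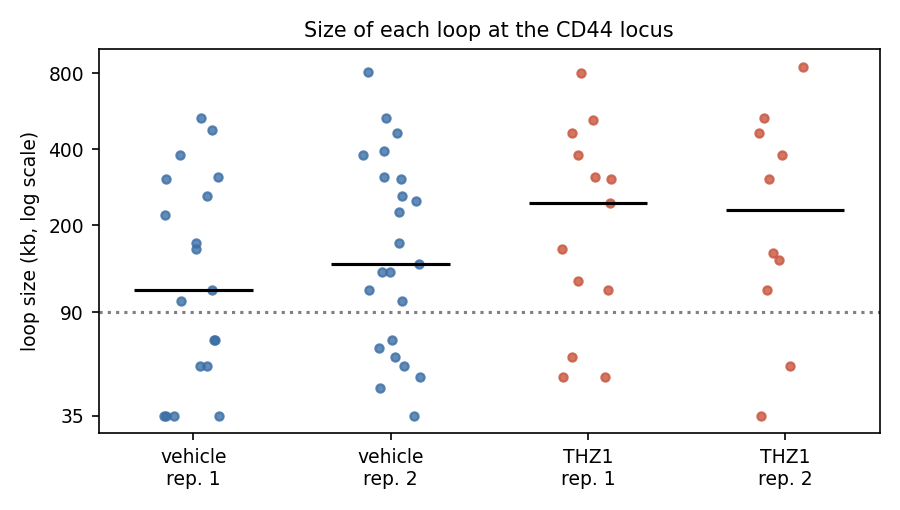
Size in kb (log scale) of each loop called around CD44, 1 point per loop, in 4 libraries, with the library median as a bar and 90 kb as a dotted line. The medians of 110 and 140 kb with vehicle lie below those of 245 and 230 kb with THZ1.

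Of the 31 distinct loops, 7 were called in all 4 libraries, 4 in both vehicle libraries alone and 0 in both THZ1 libraries alone. Over the genome, 9.67% of distinct loops were called in both vehicle libraries alone and 2.24% in both THZ1 libraries alone. A further 6 were called in other combinations of libraries, and 14 in 1 library, of which 12 were vehicle calls, against 69.4% over the genome. In all, 16 loops were called with vehicle in 1 or both libraries and with THZ1 in neither, and 2 the other way around. Over the genome these shares of distinct loops were 38% and 14.7%. On CD44, 9 distinct loops had an anchor, 2 of them were called in all 4 libraries, and 4 were called with vehicle and not with THZ1. None of the 9 was called with THZ1 alone.

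**Figure D3:**
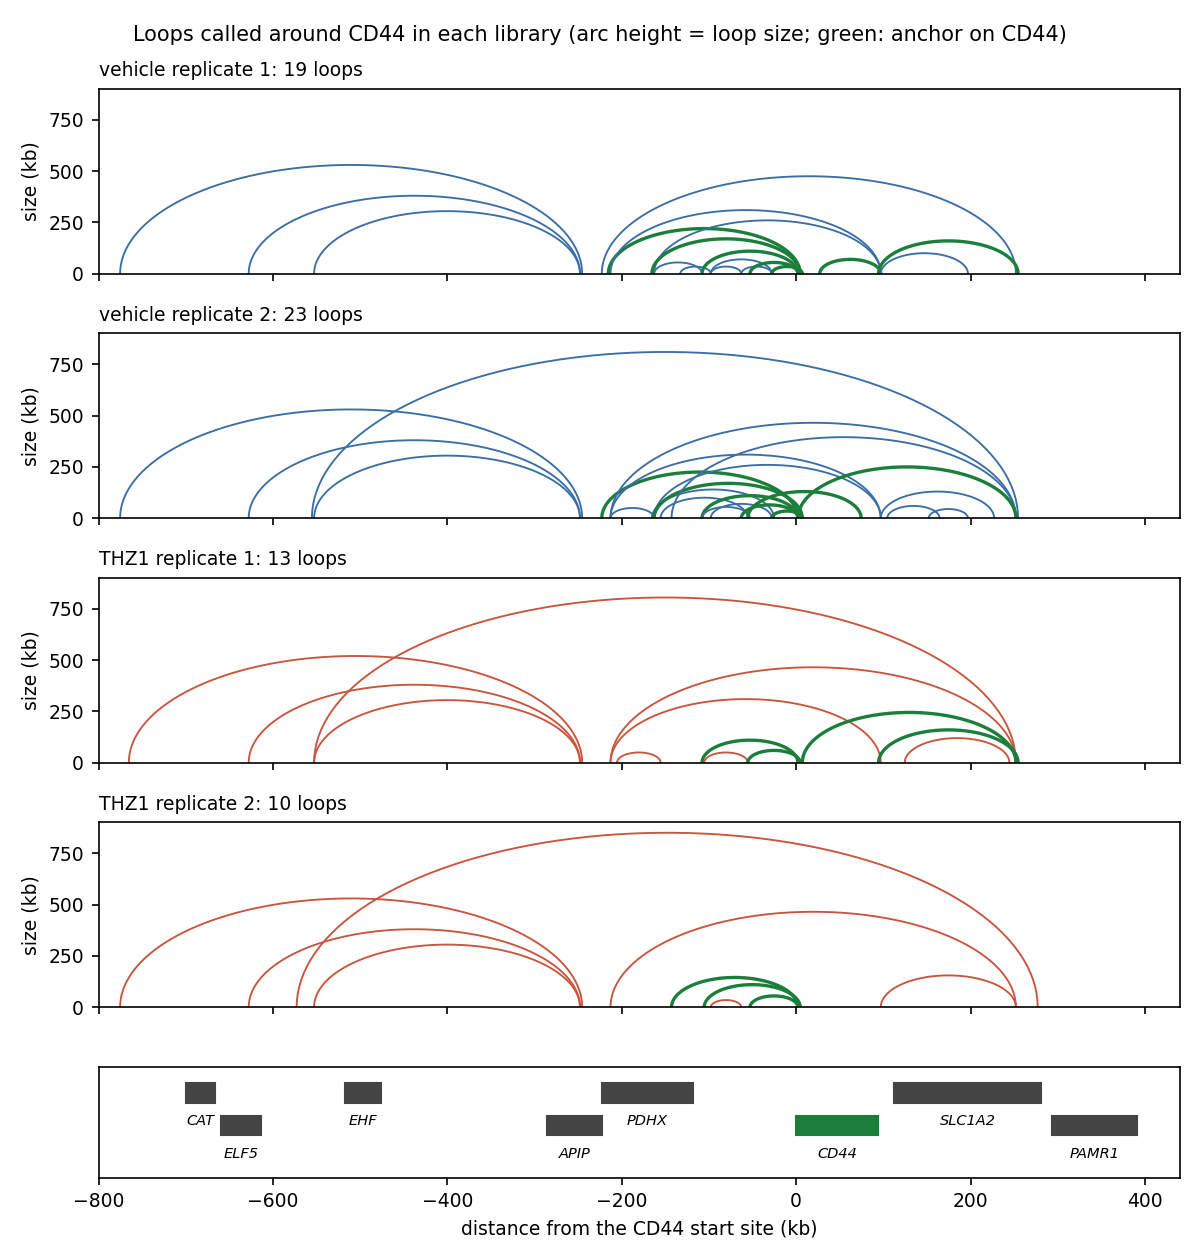
Loops called around CD44 in each library, drawn as arcs between anchor midpoints against the distance from the CD44 start site in kb, with arc height as loop size in kb, loops with an anchor on CD44 in green, and protein-coding genes beneath. Vehicle replicates 1 and 2 show 19 and 23 arcs, many of them short ones between PDHX and CD44, and THZ1 replicates 1 and 2 show 13 and 10.

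The CD44 loops called in all 4 libraries both ran from its start site to the non-coding stretch upstream. The longer joined a 5 kb segment at 35050001, inside the lncRNA gene ENSG00000289526, to the CD44 start over 110 kb. It held 36 and 40 contacts with vehicle and 43 and 84 with THZ1, the 84 from THZ1 replicate 2, where the anchors were 10 kb wide. Its ratio of observed to expected contacts was 3.56 and 3.17 with vehicle and 3.27 and 2.58 with THZ1, so the ranges overlapped. The shorter joined a segment between 35095001 and 35110000 to the CD44 start over 55 to 65 kb. It held 42 and 40 contacts with vehicle, 92 in THZ1 replicate 1, where the anchors were 10 kb wide, and 32 in THZ1 replicate 2. Its ratio was 4.44 and 4.98 with vehicle and 2.69 and 3.17 with THZ1, lower in both treated libraries, with a change of -0.69 between the group means of its log2 values. Another upstream loop joined the lncRNA gene to the same segment before CD44, with ratios of 3.36 and 4.67 with vehicle and 2.00 and 2.58 with THZ1, a log2 change of -0.80. Its anchors started at 35060001 and 35095001 in vehicle replicate 1 and THZ1 replicate 2. They started at 35050001 and 35105001 in vehicle replicate 2, and at 35050001 and 35100001 in THZ1 replicate 1. The change is thus taken over contacts at different positions. The THZ1 replicate 1 call of that loop also had 10 kb anchors, so 1 of the THZ1 values of each of these 3 loops comes from wider anchors than the vehicle values.

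Both vehicle libraries alone called 4 loops. The first tied the CD44 start to the far end of the upstream block, over 220 and 225 kb. In vehicle replicate 1 its upstream anchor lay in an intron of PDHX from 34940001, with 32 contacts and a ratio of 3.58. In vehicle replicate 2 that anchor held the start sites of APIP and PDHX from 34935001, with 18 contacts and a ratio of 3.99. The anchors were 10 kb wide in vehicle replicate 1 and 5 kb wide in vehicle replicate 2, so the contacts are not directly comparable. The second joined a 5 kb segment at 35130001, 27.9 kb before the CD44 start, to the first intron of CD44 at 35165001 over 35 kb. It held 31 and 30 contacts at ratios of 2.91 and 2.79, close to each other. The third joined the same upstream segment at 35130001 to the lncRNA gene at 35060001 over 70 kb, with 36 and 42 contacts and ratios of 3.66 and 3.65. The fourth joined PDHX at 34995001 to the segment just past the end of CD44 at 35255001 over 260 kb, with 24 and 29 contacts and ratios of 3.72 and 3.29. It spans the whole of CD44 without an anchor on it. With a matching distance of 10 kb, 5 of 32 distinct loops were called by vehicle alone in both libraries (8.99% over the genome), and with 50 kb, 0 of 12 were (8.23%), since neighbouring loops then merge.

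A loop between PDHX and the CD44 start also depended on the matching. Vehicle replicate 1 called it from 34990001 with 10 kb anchors, 72 contacts and a ratio of 2.98, and vehicle replicate 2 from 34995001 to 35165001 with 34 contacts and a ratio of 3.34. THZ1 replicate 2 called a loop from 35015001 to the CD44 start with 31 contacts and a ratio of 3.38, which was joined to the others exactly at the limit of 20 kb. THZ1 replicate 1 called none there.

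Of the other 4 loops on CD44, 3 ran downstream. CD44 at its start site was joined to SLC1A2 at 35410001 over 250 kb in vehicle replicate 2, with 19 contacts and a ratio of 6.14, and from the next 5 kb in THZ1 replicate 1, with 22 contacts and a ratio of 5.77. The end of CD44 was joined to the same SLC1A2 segment in vehicle replicate 1 (41 contacts, ratio 3.35), in THZ1 replicate 1 (47 contacts, ratio 2.84) and, from just past the gene, in THZ1 replicate 2 (27 contacts, ratio 3.57). The anchors were 10 kb wide in vehicle replicate 1 and THZ1 replicate 1 and 5 kb wide in THZ1 replicate 2. Vehicle replicate 2 did not call this loop. Single vehicle libraries called a loop from 35185001 in CD44 to just past its end (24 contacts, ratio 3.29) and one from upstream of the gene at 35100001 to an exon of CD44 at 35230001 (27 contacts, ratio 2.99). Both downstream SLC1A2 loops were therefore found with and without THZ1.

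Counted by anchor, the difference in calls lay at some segments and not at others. The 5 kb anchors that 6 or more of the loop calls touched were 11 in number, a limit chosen after the values were seen. The anchor at 34995001 in PDHX carried 3 and 4 calls with vehicle and 0 in both THZ1 libraries. The anchor at 35130001 before CD44 carried 3 in each vehicle library and 0 in both THZ1 libraries. These were 2 of 11, and both met the limit through vehicle calls alone, the second with no call to spare. Over the genome 0.952% of 10404 anchors chosen by the same rule carried no THZ1 call. With so few anchors and a limit set afterwards, a difference from that share was not tested. The anchor on the CD44 start, at 35160001, carried 4, 4, 2 and 3 calls in vehicle replicates 1 and 2 and THZ1 replicates 1 and 2. The anchor past the end of CD44 carried 5, 3, 2 and 1. The APIP anchor at 34910001 carried 3 in each library, and the SLC1A2 anchor at 35410001 carried 2 and 4 for vehicle and 4 and 2 for THZ1. The APIP and SLC1A2 anchors thus kept their number of calls, and both anchors without a THZ1 call lay between the PDHX start and CD44. Other anchors in that stretch were still called with THZ1. Those at 34945001, 35050001 and 35105001 carried 2 and 3, 2 and 2, and 1 and 3 calls with vehicle, and each carried 2 and 1 with THZ1. Segments near 34995001 were still used, since THZ1 replicate 1 called a loop ending at 35000001 in PDHX and THZ1 replicate 2 one starting at 35015001.

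The remaining shared loops joined the edges of the locus to sequence outside it or across it. The strongest ran from 34605001, 35.1 kb before the EHF start, to APIP at 34910001 over 305 kb. It held 54 and 81 contacts with vehicle and 75 and 73 with THZ1. Its ratio was 14.0 and 18.6 with vehicle and 12.2 and 11.6 with THZ1, lower in both treated libraries although the contacts were not. The loop from ELF5 at 34530001 to APIP held 14 and 16 contacts with vehicle and 26 and 20 with THZ1, at ratios of 6.09 and 7.10 against 6.86 and 5.12, which overlap. The loop from before ABTB2, with anchors at 34380001 or 34390001, to APIP had ratios of 8.93 and 7.60 with vehicle and of 4.45 and 6.48, both lower, with THZ1. The shared loop that spans CD44 ran from PDHX to SLC1A2 at 35410001 over 465 to 475 kb, with neither anchor on CD44. It held 27 and 18 contacts with vehicle and 43 and 38 with THZ1. Its ratio was 7.47 and 8.29 with vehicle and 8.78 and 9.65 with THZ1, higher in both treated libraries, with a log2 change of 0.23. Its upstream anchor lay in a PDHX intron at 34945001 in 3 libraries and, in vehicle replicate 1, on the start sites of APIP and PDHX at 34935001.

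Of the 7 loops called in all 4 libraries, 4 had a lower ratio in both THZ1 libraries than in either vehicle library and 1 had a higher one. Over the 7996 loops of the genome with exactly 1 call in each of the 4 libraries, 49.8% were lower and 5.82% were higher. The median log2 change was -0.44 at the locus and -0.35 over the genome. When loops were kept only if their anchors had 1 width in all 4 libraries, a choice made once the values were known, 4 were left at the locus, with 2 lower, 1 higher and a median of -0.30, against -0.37 over 4617 loops.

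**Figure D4:**
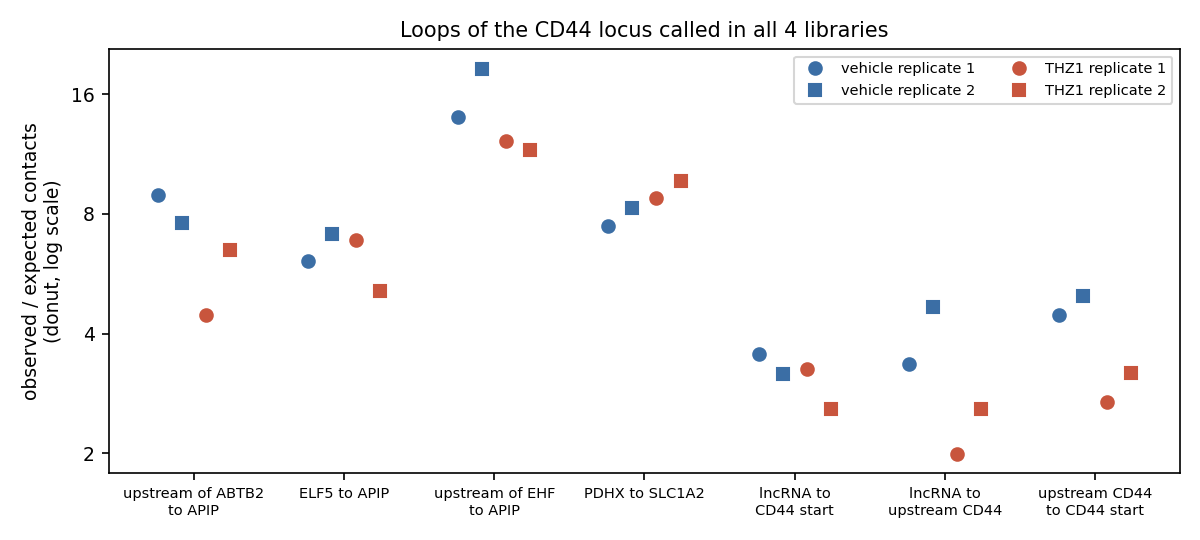
Ratio of observed to expected contacts (log scale) of the 7 loops of the locus called in all 4 libraries, 1 point per library. The loop from PDHX to SLC1A2 is higher in both THZ1 libraries, 4 loops are lower in both, and the points of 2 loops overlap.

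A test of strength needed the same anchors in all 4 lists, which 2624 loops had, and 2617 of them had expected contacts above 0 in each. Of these, 2 lay at the locus and none on CD44. By edgeR's quasi-likelihood test with the log of the donut expectation as offset and Benjamini-Hochberg adjustment, the loop from before EHF to APIP changed by -0.47 (log2, SE 0.18, adjusted p = 0.0564). The loop from ELF5 to APIP changed by -0.14 (SE 0.26, adjusted p = 0.768). Neither passed the threshold of 0.05, where 721 of the 2617 loops (27.6%) passed as weaker and 1 as stronger, with a median change of -0.41. These calls depend on single libraries: 226 loops passed as weaker without vehicle replicate 1, and 0 passed without vehicle replicate 2, without THZ1 replicate 1 or without THZ1 replicate 2, where the lone library left in a condition is assumed to vary like the others. With DESeq2 16 passed as weaker, with the horizontal and vertical expectations 47 and 72. With TMM scaling and no expectation 108 passed as weaker and 67 as stronger, and both loops of the locus turned, to 0.15 for the loop from before EHF and 0.63 for that from ELF5.

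The domains of the locus differed in position, and in number only through domains that reach past the window, since 2 lay wholly inside it in each library. Arrowhead, the domain caller of Juicer, listed 2 and 3 domains overlapping the window with vehicle and 4 in each THZ1 library (2.5 ± 0.707 and 4 ± 0, SD, n = 2). Over the genome the lists held 1198 and 1398 domains with vehicle and 2477 and 2345 with THZ1, 1.86 times as many. Before CD44, the vehicle libraries called a domain from 35010001 or 35020001 to 35160000, which ended 0.4 kb before the CD44 start. It measured 150 and 140 kb, with corner scores, the measure by which Arrowhead ranks a domain's corner, of 1.08 and 1.05. In its place, THZ1 replicate 1 called a domain from 34980001 to 35220000 (240 kb, corner score 1.49) and THZ1 replicate 2 one from 35010001 to 35200000 (190 kb, corner score 1.38). These ended 59.6 and 39.6 kb inside CD44. Both vehicle domains thus left CD44 outside and both THZ1 domains took in its start site, on a grid of 10 kb. Over the genome the median corner score was also higher with THZ1, at 1.12 and 1.11 against 1.02 and 1.06 with vehicle. The vehicle domain was 1 of 8 distinct domains called in both vehicle libraries alone, against 3.1% over the genome. The THZ1 domains differed by more than 20 kb at a boundary and were counted apart, so that 0 of 8 were called in both THZ1 libraries alone, against 17.9% over the genome.

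A domain between the end of CD44 and SLC1A2 was called in all 4 libraries. It ran from 35250001 to 35410000 in both vehicle libraries, from 35230001 to 35410000 in THZ1 replicate 1 and from 35230001 to 35420000 in THZ1 replicate 2, so its first boundary lay 20 kb deeper in CD44 after THZ1. Its corner scores were 1.15 and 1.24 with vehicle and 1.17 and 1.16 with THZ1, which overlap. Both THZ1 libraries called a domain that ended at 34910000 in APIP, of 330 and 360 kb with corner scores of 1.76 and 1.72, and no vehicle library did. Their starts differed, at 34580001 and 34550001. From PAMR1 downstream, vehicle replicate 2 and THZ1 replicate 1 called domains of 820 and 810 kb, THZ1 replicate 2 one of 140 kb, and vehicle replicate 1 none.

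**Figure D5:**
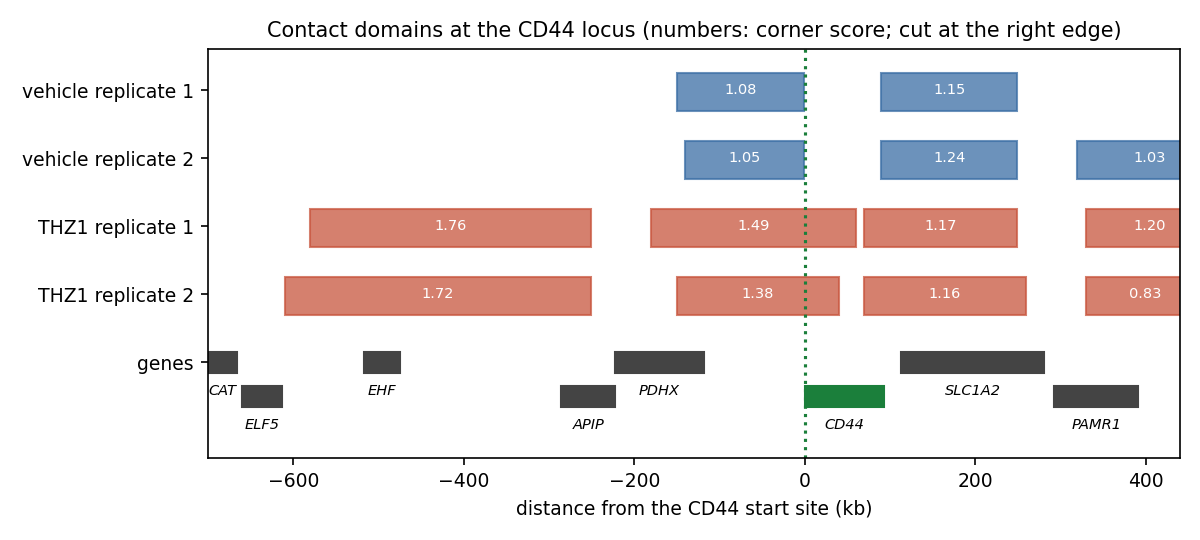
Contact domains overlapping the CD44 locus in each library, against the distance from the CD44 start site (dotted line) in kb, with the corner score inside each bar and genes beneath. Domains that run past the right edge are cut there. The vehicle domains upstream of CD44 end at its start site, and those of THZ1 replicates 1 and 2 end 59.6 and 39.6 kb inside the gene.

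The authors also deposited tables of loops unique to each condition, with counts over pooled libraries. Of the 989 vehicle-unique loops, 1 lay at the locus, from PDHX at 35000001 to a segment ending at 35125000, with 24 contacts as the authors' pooled value against 10.0 expected. No library called a loop at exactly these anchors. Vehicle replicate 2 called loops within 20 kb of it, from 35000001 to 35100001 and from 34990001 to 35130001. Of the 177 THZ1-unique loops, 1 lay at the locus, inside PDHX from 34945001 to 34995000, with 31 contacts as the authors' pooled value against 12.2 expected. By position, THZ1 replicate 1 and vehicle replicate 2 both called a loop within 20 kb of that one. Neither table held a loop on CD44.

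Other genes of the hyaluronan and CD44 pathway were read from a list of 24 genes, of which 23 had a loop on the gene body. Of these 23, 8 had fewer loops in both THZ1 libraries than in either vehicle library and 0 had more. Over the 14386 protein-coding genes with a loop, 3502 (24.3%) had fewer and 499 had more. The 8 include the neighbours HYAL1, HYAL2 and HYAL3, whose counts were the same. Among the makers of hyaluronan, the synthase HAS3 had 2 and 2 loops with vehicle and 0 and 1 with THZ1, and HAS2 had 4 and 5 in each condition. The hyaluronidase genes HYAL1, HYAL2 and HYAL3, which lie side by side, each had 1 loop in each vehicle library and 0 with THZ1. Among the proteases that cut CD44 from the surface, ADAM17 and MMP14 each had 2 in both vehicle libraries and 0 and 1 with THZ1. The ranges of the other listed proteases overlapped, with 1 and 4 against 1 and 0 for ADAM10 and 4 and 0 against 0 and 1 for MMP9. Of the receptor kinases that work with CD44, EGFR had 12 and 13 loops with vehicle and 7 and 3 with THZ1, and MET had 8 and 9 with vehicle and 5 and 5 with THZ1, while ERBB2 had 1 and 1 with vehicle and 0 and 1 with THZ1, which overlap. RDX, which encodes radixin, a link from CD44 to the actin skeleton, had 16 and 14 with vehicle and 15 and 16 with THZ1, which overlap. In the test of strength, 7 loops at 5 of these genes could be fitted, and 2 of them passed as weaker and 0 as stronger, a share near the 27.6% of all tested loops, with a median log2 change of -0.37. These were a loop at RDX, which changed by -0.57 (SE 0.19, adjusted p = 0.0315), and one at HMMR, another hyaluronan receptor, which changed by -0.64 (SE 0.17, adjusted p = 0.0121).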

How the data were processed

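The authors made Arima-HiC libraries and processed the reads with Juicer 1.6 against hg19 per the labels' processing notes, and the list headers name juicer_tools 1.19.02. Settings of HiCCUPS and Arrowhead, filters and the program that made the unique-loop tables are not given in the sources used here. In the deposited loop lists the observed values are raw contact counts at a loop's peak pixel, the deposited expectations are a background signal in the same contact units, and the deposited FDR values (q-values, a kind of p-value) reached 0.0997. The deposited score of a domain is Arrowhead's corner score. The authors' tables of unique loops hold counts and expected signal over pooled libraries.

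The window, the gene lists and the rules were chosen with earlier results of these data known. The text gives in full the loops on CD44, those called in all 4 libraries and those called in both libraries of 1 condition alone, and names genes at anchors. Conditions were compared over the 4 libraries by exact permutation, two-sided. Lists were read with Python 3.11.15, pandas 2.3.3, numpy 2.4.6 and scipy 1.17.1, and plots drawn with matplotlib 3.10.9. Loop strength was tested over 2617 loops with edgeR 4.0.16 in R 4.3.3, after 7 loops with an expectation of 0 were left out. In a simulation of the counts of these 2617 loops, 200 of them changed, 34.6% of those changed 1.5-fold, 70% of those changed 2-fold and 98.1% of those changed 3-fold were recovered, with 0 false calls of 127. The simulation gave all loops the same dispersion (spread beyond counting noise), changed loops in either direction and left most unchanged. The data differ from this, with most ratios lower after THZ1, so its share of false calls does not carry over to them. Genes are from GENCODE 44 lifted to GRCh37. None of the 61322 distinct anchors lay beyond a chromosome end of that build. Alternatives were other anchor widths, FDR limits, matching distances, expectations and normalizations, DESeq2 1.42.0, and leaving out each library. Contact maps were not analysed here.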

Additional observations from a re-analysis of the deposited data

How the results depend on the processing

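Of 34 alternatives for the counts of loops at the locus and on CD44, their size, the share of small loops and the number of domains, 33 kept the direction. The exception counted only domains inside the window, where the log2 ratio of THZ1 to vehicle went from 0.68 to 0. With 25 kb anchors alone no ratio could be formed, since no vehicle library had such a loop at the locus. The 4 loops called in both vehicle libraries alone became 0 with a matching distance of 50 kb. The number of loops called weaker by edgeR, 721 of 2617, was 47 with the horizontal and 72 with the vertical expectation, 108 (and 67 stronger) with TMM and no expectation, 16 with DESeq2 (360 at an unadjusted p under 0.05), and 0 to 226 with 1 library left out, 226 without vehicle replicate 1 and 0 without any other (698 to 848 at an unadjusted p under 0.05). With TMM and no expectation, the median log2 change of both tested loops of the locus turned from -0.30 to 0.39, that of ELF5 to APIP from -0.14 to 0.63 and that of the loop before EHF from -0.47 to 0.15. The loop from ELF5 to APIP ranged from -0.36 to 0.058 with 1 library left out. The causes were not tested. Deviations of libraries with the same replicate number were nearly uncorrelated (r = 0.0173 over 2617 loops). Small counts make these deviations noisy, so this does not show that the libraries were unpaired. With the replicate block 770 loops were called weaker. With 2 libraries per condition no comparison of libraries could reach a p below 0.333. Counts of 12 to 92 contacts per loop limit the precision of each ratio, and a loop that a list lacks may lie below the caller's threshold.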
